A study of Mus musculus with 11 samples.

Results

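Hepatic stellate cells, and the myofibroblasts that they become in scarring liver, were followed through 10 marker genes in the liver RNA of AMLN *ob/ob*-MASH mice, a model of obesity with fatty, inflamed and scarred liver. The 10 genes were taken by symbol from a table of 46603 genes, and all 10 had enough reads to be tested. *Acta2*, *Tagln*, *Myl9* and *Vim* stand for the contractile and cytoskeletal machinery, and *Pdgfra* and *Pdgfrb* are the receptors for platelet-derived growth factor (PDGF). Together these 6 genes were treated as activation markers. *Lrat*, *Reln* and *Cygb* were treated as 3 quiescence markers, and *Des*, which rodent stellate cells make in either state, was kept apart.

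In healthy liver, stellate cells lie between hepatocytes and the sinusoidal endothelium and store vitamin A as retinyl esters in lipid droplets. Upon injury they lose these droplets, acquire PDGF receptors and contractile actin, and deposit collagen, a change known as activation. Contractile genes such as *Acta2* and *Tagln* are classical targets of serum response factor (SRF), which binds a short DNA element called the CArG box.

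Whole-liver polyA RNA came from the left lateral lobe of 11 male Lep *ob/ob* mice, which lack leptin. All 11 were fed the AMLN diet, a high-fat feed with added fructose and cholesterol, from an age of 5 to 6 weeks. After 15 weeks of diet, 7 mice received vehicle and 4 received INT-767, an agonist of the bile acid receptors FXR and TGR5, by mouth at 10 mg/kg once daily for 8 weeks, with the diet continued. Before treatment the mice had a liver biopsy, had to reach minimum scores of steatosis and fibrosis, and were stratified by type I collagen area. The paper reports histology on more mice per group than were sequenced, and how the sequenced mice were chosen is not given. No lean or chow-fed liver was analysed here, so that the marker levels of a liver without disease are not part of the comparison. The labels number the mice within each group and give no batch, and p-values measure the spread between these samples.

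Total counts per mouse were between 7966963 and 15295230 with vehicle and between 7381211 and 16022459 with INT-767. Levels are given as CPM, the read count relative to library size after TMM scaling, and fold changes as log2 of INT-767 over vehicle with the standard error (SE). An adjusted p is that of edgeR's quasi-likelihood test over 13880 genes, with genes under 0.05 called changed. Albumin (*Alb*), the main product of hepatocytes, stood at 43057 ± 4297 CPM with vehicle (SD, n = 7). With INT-767 it stood at 63913 ± 19494 CPM (SD, n = 4), a fold change of 0.57 that did not pass (edgeR adjusted p = 0.0891). The FXR targets *Nr0b2* and *Abcb11* served to check the treatment label. *Nr0b2*, which encodes the repressor SHP, stood at 17.1 ± 5.92 CPM with vehicle (SD, n = 7) and at 49.7 ± 9.5 CPM with INT-767 (SD, n = 4). *Abcb11*, the bile salt export pump, rose by 1.64 (SE 0.26, edgeR adjusted p = 0.00471). On the first principal component of all tested genes, INT-767 mice 4 and 2 had the lowest values, at -90.27 and -73.16, followed by vehicle mice 1 and 7 at -41.16 and -19, and the highest value was that of vehicle mouse 5 at 61.98.

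CArG boxes were looked for in the 250 bases before the RefSeq start (GRCm38.p6) of the 7 markers that have a promoter window in the table used. The letters searched were CC, then 6 bases of A or T, then GG. This pattern reads the same way on both strands. An exact box was present in 1.47% of 32851 windows, and 8.59% held a box when 1 of the 6 central bases could be G or C. *Acta2* and *Myl9* each held 2 boxes under the wider definition and *Lrat* held 1, where 0.67% of all windows held 2 or more. No such letters were found in the windows of *Vim*, *Pdgfra*, *Des* and *Reln*. The stretches are shown because the contractile genes are the markers for which SRF sites are best known, and each is written 5′ to 3′ on the strand of the gene with the box in capitals.
*Acta2* box at 84 to 75 bases before the start, chr19:34255438-34255467, minus strand: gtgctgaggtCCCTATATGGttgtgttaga
*Acta2* box at 34 to 25 bases before the start, chr19:34255388-34255417, minus strand: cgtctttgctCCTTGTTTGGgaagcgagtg
*Myl9* box at 161 to 152 bases before the start, chr2:156775293-156775322, plus strand: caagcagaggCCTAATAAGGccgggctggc
*Myl9* box at 99 to 90 bases before the start, chr2:156775355-156775384, plus strand: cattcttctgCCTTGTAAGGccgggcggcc
*Lrat* box at 223 to 214 bases before the start, chr3:82904178-82904207, minus strand: cttctcaccgCCAAGAAAGGtgctccattc
The exact box was the first of *Myl9*, and the other 4 have 1 G or C in the centre. Both stretches of *Acta2* lie within the first exon of a longer transcript in GENCODE M21. A match of letters is a description of the sequence and not evidence that SRF was bound in these livers.

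Levels of different genes were compared as RPKM, which divides by the length of the merged exons. In vehicle livers *Cygb*, the globin of stellate cells, stood highest at 22.2 ± 5.33 RPKM (SD, n = 7), followed by *Vim*, the intermediate filament of mesenchymal cells, at 18.8 ± 4.07 RPKM. These neighbours did not differ beyond their spread. A middle group held *Pdgfrb* (7.7 ± 3.05 RPKM), *Tagln* (6.42 ± 1.39 RPKM), *Lrat* (5.32 ± 1.03 RPKM) and *Reln* (4.72 ± 1.86 RPKM), whose order was likewise within the spread. The lowest levels were those of *Pdgfra* (2.95 ± 0.805 RPKM), *Acta2* (2.46 ± 0.976 RPKM), *Des* (2.2 ± 0.446 RPKM) and *Myl9* (2.06 ± 0.516 RPKM). *Acta2* and *Myl9* were thinly covered in reads, with between 20 and 120 counts per mouse for *Acta2* and between 5 and 58 for *Myl9*, whereas *Reln* had between 302 and 2389. A floor of 3 counts corresponds to between 0.187 and 0.406 CPM in these libraries before TMM scaling.

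Across the 10 markers, *Pdgfrb* was lower with INT-767 and no other marker passed the threshold. This is 1 of 10 in the lower direction, where 4.68% of all tested genes were called lower, and 0 of 10 in the higher direction, where 5.04% were. At an unadjusted p under 0.05, 4 markers were lower (*Pdgfra*, *Pdgfrb*, *Des* and *Cygb*), against 15.6% of all tested genes. The fold change lay below 0 for 9 of the 10, with *Lrat* as the exception, whereas 50.6% of all tested genes lay below 0. The median of the 10 was -0.58 and that of all tested genes -0.01. In none of the 10 did the mice of the 2 groups separate fully, whereas 3.65% of all tested genes separated with INT-767 lower and 3.87% with INT-767 higher. In bulk RNA, fewer cells of a type and less RNA per cell cannot be told apart.

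**Figure D1:**
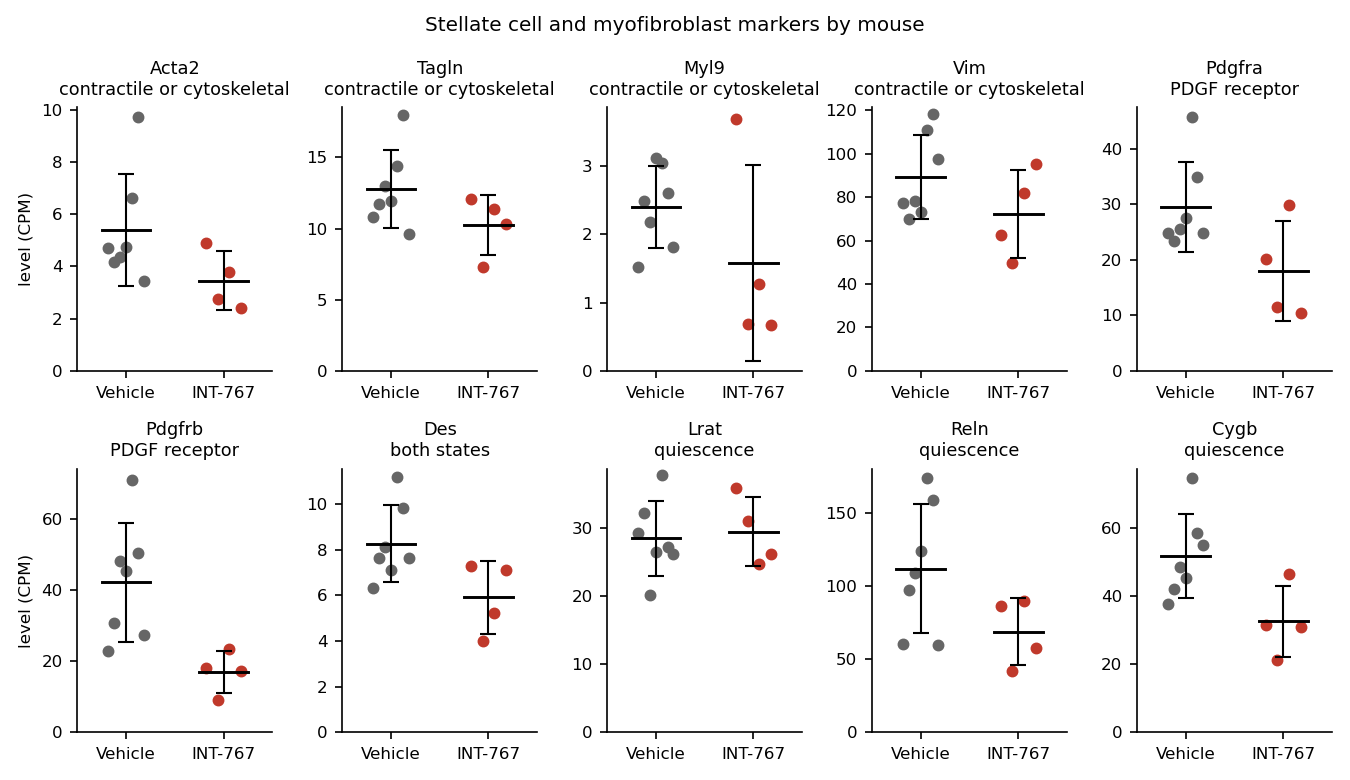
Level of each of the 10 markers in CPM (vertical axis, from 0) in each of 7 vehicle mice (grey) and 4 INT-767 mice (red), with a line for the mean and bars for the SD. The 4 INT-767 mice lie at or below 23.5 CPM of *Pdgfrb*, against a vehicle median of 45.3 CPM, while *Lrat* overlaps across its range.

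**Figure D2:**
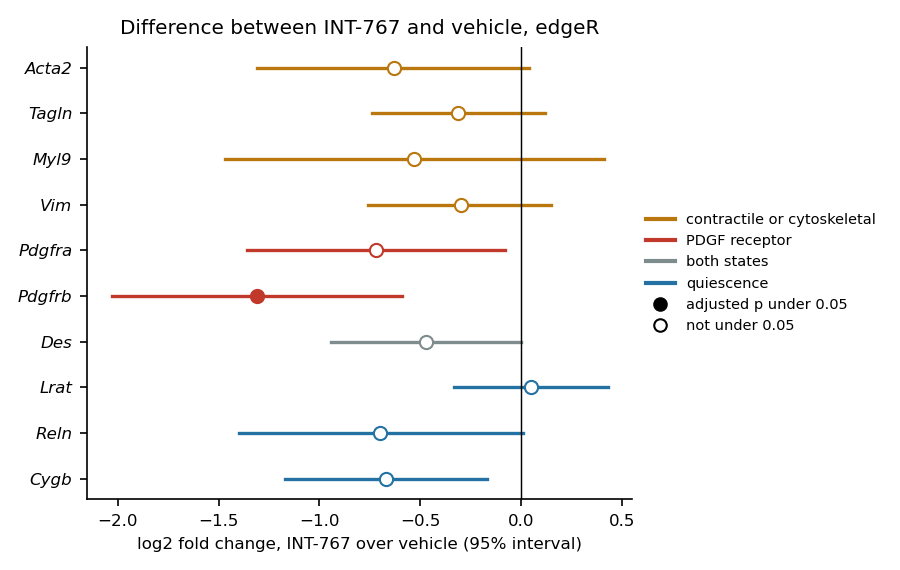
The log2 fold change of INT-767 over vehicle (horizontal axis) for each marker with its 95% interval from edgeR, coloured by role and filled where the adjusted p is under 0.05. *Pdgfrb* at -1.31 is the only filled point, and *Lrat* at 0.05 is the only marker above 0.

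*Acta2*, which encodes alpha smooth muscle actin, the usual histological mark of myofibroblasts, was low in all livers. With vehicle its lowest, median and highest levels were 3.44, 4.69 and 9.74 CPM (n = 7). With INT-767 the 4 mice stood at 4.89, 2.76, 3.8 and 2.4 CPM. Vehicle mouse 6 was high alone, and INT-767 mice 2 and 4 lay below every vehicle mouse while the other two lay within the vehicle range. The means were 5.4 ± 2.14 and 3.46 ± 1.12 CPM (SD, n = 7 and 4), and the fold change of -0.63 (SE 0.31, 95% interval -1.31 to 0.04) did not pass the test (edgeR adjusted p = 0.173, exact two-sided Mann-Whitney p = 0.164). Leaving out INT-767 mouse 1 gave an exact Mann-Whitney p of 0.0333 (fold change -0.86, edgeR adjusted p = 0.092). Leaving out mouse 2 or 4 of that group gave an exact Mann-Whitney p of 0.383 (fold change -0.55 and -0.48). Without vehicle mouse 6 the fold change was -0.43 (edgeR adjusted p = 0.303). None of 2121 windows of 75 bases, the read length, from *Acta2* transcripts occurred in another gene. The related muscle actins *Actg2*, *Acta1* and *Actc1* had 12, 0 and 29 counts over all vehicle mice.

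*Tagln*, the actin-binding protein SM22, was likewise highest in vehicle mouse 6. Its lowest, median and highest vehicle levels were 9.63, 11.9 and 18 CPM (n = 7). The INT-767 mice stood at 12.1, 7.32, 11.4 and 10.3 CPM, so that only mouse 2 lay below all vehicle mice. The fold change was -0.31 (SE 0.20, edgeR adjusted p = 0.281, exact Mann-Whitney p = 0.23). It was -0.19 without INT-767 mouse 2 and -0.51 when scaled by library size only, where the median of all genes was -0.22, and it passed in neither (edgeR adjusted p = 0.588 and 0.154). *Tagln* (GRCm38 chr9:45929619-45936058, minus strand) is covered on the opposite strand by other gene models over 67.9% of its exon bases. *Gm48529* alone covers 62.4% of all *Tagln* exon bases. Of 1983 windows of 75 bases from *Tagln* transcripts, searched in both orientations, 53.3% occurred in another gene model and 51.6% in *Gm48529*. As *Gm48529* lies opposite *Tagln*, these windows describe the same overlap and not a second place in the genome. The models are those of GENCODE M21, whereas the study aligned to Ensembl release 84. Whether reads were counted by strand is not given in the sources used here. *Pcsk7*, a neighbour that covers 5.43% of the *Tagln* exon bases, stood at 28.5 ± 2.94 CPM with vehicle and 41.4 ± 14.7 CPM with INT-767 (SD, n = 7 and 4). Its fold change was 0.54 (edgeR adjusted p = 0.0856). Its part in the *Tagln* counts was not tested.

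*Myl9*, a regulatory light chain of smooth muscle myosin, had the fewest reads. Vehicle mice had a lowest, median and highest level of 1.52, 2.49 and 3.12 CPM (n = 7). The INT-767 mice stood at 3.69, 0.691, 1.27 and 0.674 CPM, with mouse 1 above every vehicle mouse and the other 3 below every vehicle mouse. The fold change of -0.53 (SE 0.43, 95% interval -1.47 to 0.41) did not pass (edgeR adjusted p = 0.39, exact Mann-Whitney p = 0.23). It depended on single treated mice, at -1.47 without INT-767 mouse 1 (edgeR adjusted p = 0.0296, exact Mann-Whitney p = 0.0167), -0.32 without INT-767 mouse 2 (edgeR adjusted p = 0.686) and -0.25 without INT-767 mouse 4 (edgeR adjusted p = 0.735). *Vim* ranged more narrowly, with a lowest, median and highest vehicle level of 69.9, 78.3 and 118 CPM (n = 7). INT-767 mice stood at 62.4, 49.5, 81.9 and 95.2 CPM, mice 1 and 2 below all vehicle mice and the others inside their range. Its fold change was -0.30 (SE 0.21, edgeR adjusted p = 0.312, exact Mann-Whitney p = 0.315). It lay between -0.47 with INT-767 mouse 4 left out and -0.18 with mouse 2 of that group left out, and at -0.53 with library size only, and passed in none of these (edgeR adjusted p = 0.214, 0.63 and 0.153).

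*Pdgfrb*, the receptor through which PDGF-B drives stellate cell division and migration, fell with INT-767. Its lowest, median and highest levels in vehicle livers were 22.8, 45.3 and 71 CPM (n = 7). The INT-767 livers stood at 18, 9.12, 23.5 and 17.3 CPM. Every INT-767 mouse lay below the vehicle median and 3 of 4 lay below the lowest vehicle mouse, while mouse 3 lay just above vehicle mouse 1. The vehicle mean was 2.49 times that of INT-767, at 42.2 ± 16.7 against 17 ± 5.93 CPM (SD, n = 7 and 4). The fold change was -1.31 (SE 0.33, 95% interval -2.03 to -0.59, edgeR adjusted p = 0.0302, exact two-sided Mann-Whitney p = 0.0121, where 4 against 7 mice allow no p below 0.00606). The call was lost without vehicle mouse 3, 4, 5 or 6 or INT-767 mouse 2 or 4, with fold changes between -1.49 and -1.12 and adjusted p between 0.0147 and 0.114 over the 11 fits that left out 1 mouse. With an offset for GC content and transcript length the fold change shrank to -0.93 and passed (edgeR adjusted p = 0.0171). *Pdgfrb* (GRCm38 chr18:61045150-61085061, plus strand, 24 merged exons) overlaps no gene model on the opposite strand, and it shared no 75-base window with another gene.

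*Pdgfra*, the receptor for PDGF-A and PDGF-C that fibroblasts of many tissues carry, lay below the vehicle range in 3 of 4 treated mice. Vehicle livers had a lowest, median and highest level of 23.4, 25.5 and 45.7 CPM (n = 7). INT-767 livers stood at 20.1, 11.5, 29.8 and 10.5 CPM, the third of them within the vehicle range and the rest below it. The fold change of -0.72 (SE 0.29) had an unadjusted p of 0.03 and did not pass after adjustment (edgeR adjusted p = 0.117, exact Mann-Whitney p = 0.109). Without INT-767 mouse 3 it was -1.06 and passed (edgeR adjusted p = 0.0376, exact Mann-Whitney p = 0.0167). In the other fits that left out a mouse it did not pass, with an edgeR adjusted p of up to 0.323 without INT-767 mouse 2. With an offset for GC content and transcript length it was -0.42 (edgeR adjusted p = 0.141).

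The ligands of these receptors were taken as a list of 5 genes with the receptor-like gene *Pdgfrl*. Of the 5, 1 was called lower (beside 4.68% of all tested genes) and 0 higher, and their median fold change was 0.04, beside -0.01 for all tested genes. *Pdgfb*, which encodes the main ligand of PDGF receptor beta, stood at 7.53 ± 2.18 CPM with vehicle and 3.9 ± 1.21 CPM with INT-767 (SD, n = 7 and 4), and it fell by 0.96 on the log2 scale (edgeR adjusted p = 0.0417). The mice of the 2 groups overlapped, with a vehicle range of 4.95 to 10.5 CPM and an INT-767 range of 2.9 to 5.63 CPM. *Pdgfa* (fold change 0.04, edgeR adjusted p = 0.886) and *Pdgfc* (0.32, edgeR adjusted p = 0.481) did not pass. No ligand gene was called lower in 8 of the 11 fits that left out a mouse, and 1 was when vehicle mouse 1, vehicle mouse 3 or INT-767 mouse 3 was left out. Of all tested genes, between 110 and 732 were called lower in the former fits and 1370, 383 and 619 in the latter. With all mice 649 were.

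*Des* encodes desmin, the muscle intermediate filament by which rodent stellate cells are recognised. In vehicle livers its lowest, median and highest levels were 6.34, 7.65 and 11.2 CPM (n = 7). The INT-767 livers stood at 7.31, 4.01, 5.21 and 7.12 CPM. All 4 lay below the vehicle median, and mice 2 and 3 lay below every vehicle mouse. Its fold change was -0.47 (SE 0.22, edgeR adjusted p = 0.149, exact Mann-Whitney p = 0.0727), and -0.28 with the GC content and length offset (edgeR adjusted p = 0.281). The exact Mann-Whitney p was 0.0381 with vehicle mouse 1 or 4 left out, 0.0242 with library size only and up to 0.183 with INT-767 mouse 2 or 3 left out, while no edgeR fit among these passed.

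None of the 3 quiescence markers passed the test, and their fold changes differed in sign. *Lrat* encodes the enzyme that esterifies retinol for storage, which in liver is found mainly in stellate cells. Vehicle livers had a lowest, median and highest level of 20.2, 27.2 and 37.9 CPM (n = 7). INT-767 livers stood at 35.9, 31.1, 24.8 and 26.2 CPM, all within the vehicle range. The means were 28.5 ± 5.52 and 29.5 ± 5.05 CPM (SD, n = 7 and 4), and the fold change was 0.05 (SE 0.18, edgeR adjusted p = 0.847, exact Mann-Whitney p = 1). Its 95% interval ran from -0.33 to 0.43, so that changes of either sign within these bounds are compatible with the data. The sign itself was negative under 6 alternatives, among them scaling by library size only (-0.15).

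*Reln* encodes reelin, a secreted glycoprotein that stellate cells make in the liver. Vehicle levels had a lowest, median and highest value of 60, 109 and 174 CPM (n = 7), with mice 1 and 7 far below the others. INT-767 livers stood at 86.6, 41.7, 89.8 and 58.1 CPM. All 4 lay below the vehicle median, and mice 2 and 4 lay below the lowest vehicle mouse. The fold change was -0.70 (SE 0.32, edgeR adjusted p = 0.154, exact Mann-Whitney p = 0.0727). With vehicle mouse 1 or 7 left out the exact Mann-Whitney p was 0.0381, and with INT-767 mouse 2 or 4 left out it was 0.183, while edgeR passed in none of these. With the offset for GC content and length the fold change was -0.09 (edgeR adjusted p = 0.674). *Reln* has the longest merged exons of the 10 markers, at 23738 bases.

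*Cygb* encodes cytoglobin, an oxygen-binding protein that in liver is found in stellate cells. Its lowest, median and highest vehicle levels were 37.7, 48.6 and 74.7 CPM (n = 7). The INT-767 livers stood at 31.5, 21.3, 46.3 and 31 CPM. Every treated mouse lay below the vehicle median, and 3 of 4 lay below every vehicle mouse. The means were 51.7 ± 12.4 and 32.5 ± 10.3 CPM (SD, n = 7 and 4), with a fold change of -0.67 (SE 0.23, 95% interval -1.17 to -0.17, edgeR adjusted p = 0.0766, exact Mann-Whitney p = 0.0424). *Cygb* passed without vehicle mouse 1 (-0.73, edgeR adjusted p = 0.0383) and without INT-767 mouse 3 (-0.88, edgeR adjusted p = 0.0378), and by DESeq2 on all mice (-0.67, adjusted p = 0.0323). It did not pass in the other 9 fits that left out a mouse, where the edgeR adjusted p reached 0.241 (fold change -0.53) with INT-767 mouse 2 removed. By the exact Mann-Whitney test the p rose above 0.05 in 7 of 11 such comparisons, to 0.0667 without vehicle mouse 3, 5, 6 or 7 and to 0.117 without INT-767 mouse 1, 2 or 4.

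Activation markers were then set against quiescence markers. All 6 activation markers had fold changes below 0, between -1.31 and -0.30 with a median of -0.58. Of the 3 quiescence markers 2 were below 0, between -0.70 and 0.05 with a median of -0.67. The medians differed by 0.09, with the activation markers less lowered. The mean over genes gave the opposite sign. Within each mouse, the mean log2 CPM of the activation markers minus that of the quiescence markers was -1.73 ± 0.12 with vehicle (SD, n = 7) and -1.98 ± 0.16 with INT-767 (SD, n = 4), a difference of -0.26 with the activation markers more lowered (pooled SD within groups 0.13). The mouse values ranged from -1.89 to -1.55 with vehicle and from -2.15 to -1.80 with INT-767. INT-767 mice 2, 3 and 4 lay below every vehicle mouse and INT-767 mouse 1 lay within the vehicle range, so that the groups overlapped. The difference of medians itself was -0.40 with the GC content and length offset, -0.02 by limma-voom and -0.17 without INT-767 mouse 1. The sign of the difference of medians, which rests on 3 quiescence genes, thus depended on this correction, on the tool and on single mice. The contrast within mice was not recomputed under these alternatives and has no test. It was also not recomputed without *Pdgfrb*, the lowest activation marker at -1.31, or *Lrat*, the highest quiescence marker at 0.05.

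Ratios between markers within a mouse do not depend on library scaling. *Pdgfrb* over *Lrat* was 1.51 ± 0.595 with vehicle and 0.601 ± 0.276 with INT-767 (SD, n = 7 and 4), with ranges of 0.779 to 2.39 and 0.293 to 0.949 that overlapped. *Acta2* over *Lrat* was 0.193 ± 0.0788 with vehicle and 0.118 ± 0.0324 with INT-767, again with overlap. Of 8 ratios computed, *Pdgfrb* over *Reln* was the only one whose groups did not overlap, at 0.382 ± 0.0558 with vehicle (range 0.314 to 0.454) and 0.246 ± 0.0416 with INT-767 (range 0.208 to 0.298). It was chosen after its values were seen and has no test.

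Single mice were high or low in several markers at once, in vehicle as well as treated livers. Vehicle mouse 5 was the highest of its group in 6 of the 10 markers (*Pdgfra*, *Pdgfrb*, *Des*, *Lrat*, *Reln* and *Cygb*) and vehicle mouse 6 in 3 (*Acta2*, *Tagln* and *Vim*). Vehicle mouse 1 was the lowest in 4 (*Myl9*, *Pdgfrb*, *Des* and *Cygb*). Among treated livers, INT-767 mouse 2 was the lowest in 6, and mice 1 and 3 were the highest in 5 and 4. INT-767 mouse 2 also stood furthest below the vehicle mean, by 1.23 on the log2 scale for the activation markers and by 0.80 for the quiescence markers, whereas its *Lrat* lay above the vehicle mean.

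**Figure D3:**
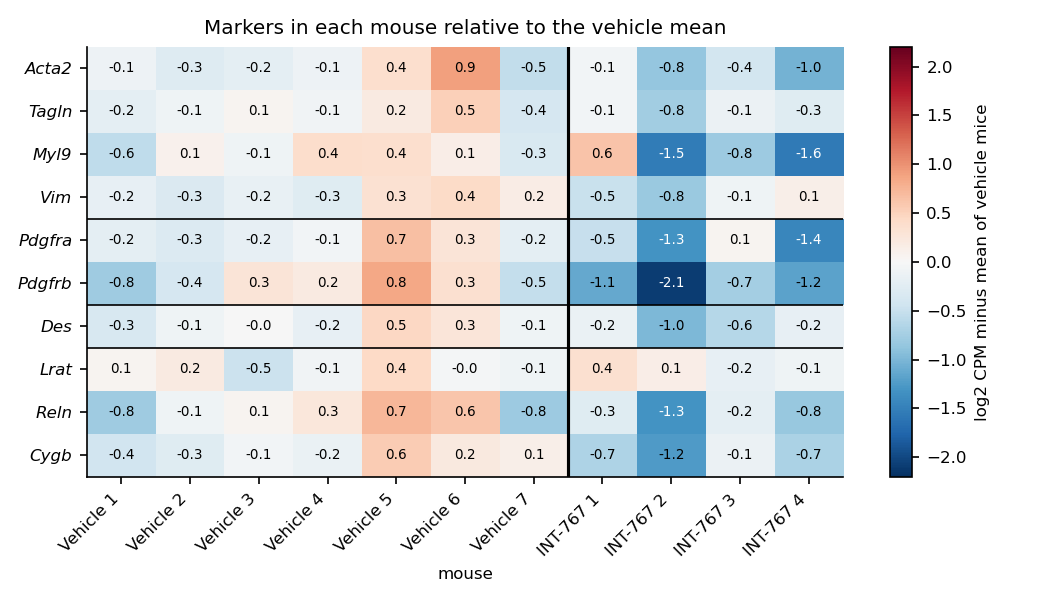
Log2 CPM of each marker (rows) in each mouse (columns) minus the mean of the vehicle mice, on a colour scale from blue (lower) to red (higher), with a vertical line between the groups. Vehicle mouse 5 is above the vehicle mean in all 10 rows, and INT-767 mouse 2 is below it in every row except *Lrat*.

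The genes most like *Acta2* and *Lrat* were ranked by Pearson's r of log2 CPM over the 11 mice, after taking out the group means, among 13273 genes with a mean of at least 1 CPM. This is a description, and all genes of a mouse share its library and depth. The 5 closest to *Acta2* were *Tgfbr3* (r = 0.91, Spearman's rho = 0.85), *Sox7* (r = 0.91, rho = 0.89), *P2rx7* (r = 0.89, rho = 0.81), *Siglec1* (r = 0.89, rho = 0.89) and *Arhgef28* (r = 0.89, rho = 0.90). Among the other markers *Tagln* came nearest, at rank 52 (r = 0.84, rho = 0.80), followed by *Reln* at rank 310 (r = 0.76, rho = 0.84). The 5 closest to *Lrat* were *Arl16* (r = 0.90, rho = 0.94), *Senp2* (r = 0.88, rho = 0.95), *Gm5970* (r = 0.87, rho = 0.82), *1010001N08Rik* (r = 0.87, rho = 0.94) and *Gm44164* (r = 0.84, rho = 0.79). Among the other markers the nearest to *Lrat* was *Myl9*, at rank 916 (r = 0.41, rho = 0.43). The genes grouped with *Lrat* as quiescence markers varied little with it, at r = 0.16 for *Reln* (rho = 0.21) and 0.01 for *Cygb* (rho = -0.06).

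Further contractile and actin-binding genes were taken as a list of 25, of which 21 were tested. Of these, 5 were lower and 0 higher, with a median fold change of -0.64, beside 4.68% of all genes lower and a median of -0.01. At an unadjusted p under 0.05, 8 were lower and 2 higher, beside 15.6% and 17.4% of all tested genes. *Tagln2*, a relative of *Tagln* found in many cell types, stood at 72.4 ± 6.73 CPM with vehicle and 44 ± 11.7 CPM with INT-767 (SD, n = 7 and 4) without overlap (fold change -0.72, edgeR adjusted p = 0.0252). *Flna*, the actin cross-linker filamin A, had ranges of 106 to 219 and 39.9 to 97.9 CPM and fell by 1.06 on the log2 scale (edgeR adjusted p = 0.0295). *Pdlim7* (-0.87, edgeR adjusted p = 0.0265) and *Cnn2* (-0.68, edgeR adjusted p = 0.0274) fell as well. The called genes are expressed in many cell types, and the smooth muscle gene *Cnn1* was too low to be tested, at 0.153 ± 0.124 CPM with vehicle. Cytoplasmic actin *Actb* (-0.47, edgeR adjusted p = 0.0845) and caldesmon *Cald1* (0.02, edgeR adjusted p = 0.935) did not pass. No gene of the list was called without vehicle mouse 5, vehicle mouse 6 or INT-767 mouse 2, and 3 were called without vehicle mouse 4 or INT-767 mouse 4. In those fits between 110 and 443 of all tested genes were called lower, against 649 with all mice. Without vehicle mouse 1 the list count was 7, where 1370 of all tested genes were called lower.

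Other genes that rise when stellate cells become myofibroblasts, most of them for the extracellular matrix, formed a list of 25. Of these, 24 were tested, 9 were lower and 0 higher, and the median fold change was -1.08, beside 4.68% of all genes called lower and a median of -0.01. The list holds collagens and *Sparc*, which the study itself picked out on these samples, and its count is not independent evidence of a direction. *Col1a2*, a chain of type I collagen, stood between 46.6 and 309 CPM with vehicle and between 10.6 and 39.5 CPM with INT-767, with no overlap, and fell by 2.35 on the log2 scale (SE 0.57, edgeR adjusted p = 0.0272). *Thbs1*, which encodes the matrix protein thrombospondin 1, fell by 1.23 (edgeR adjusted p = 0.0122). *Loxl2*, which cross-links collagen, fell by 1.63 (edgeR adjusted p = 0.0168), and the microfibril gene *Mfap2* by 1.77 (edgeR adjusted p = 0.0237). The most abundant gene of the list, fibronectin *Fn1*, did not pass (-0.90, edgeR adjusted p = 0.25), nor did *Col3a1* (-1.40, edgeR adjusted p = 0.0516). The count was 0 without INT-767 mouse 2, 3 without vehicle mouse 5 or 6, 4 without vehicle mouse 4 and 5 without vehicle mouse 3. Of all tested genes, 110, 284 and 383 were called lower without INT-767 mouse 2, vehicle mouse 5 and vehicle mouse 3. With all mice 649 were, and fewer than that without vehicle mouse 4 or 6. The list count was 12, 11 and 10 without vehicle mouse 1, vehicle mouse 7 and INT-767 mouse 4. In these fits 1370, 679 and 443 of all tested genes were called lower.

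Other genes of quiescent stellate cells showed no common direction among the 21 tested and reported. By edgeR 0 were called lower (2 at an unadjusted p under 0.05, beside 15.6% of all tested genes) and 1 higher (beside 5.04%), and the median was 0.03, beside -0.01 for all tested genes. *Angptl6*, an angiopoietin-like secreted protein, stood at 3.47 ± 0.892 CPM with vehicle and 8.31 ± 3 CPM with INT-767 (SD, n = 7 and 4) without overlap and rose by 1.26 (edgeR adjusted p = 0.0129). The abundant stellate cell genes *Dcn* (0.22, edgeR adjusted p = 0.441) and *Cxcl12* (0.13, edgeR adjusted p = 0.542) did not pass. The lower count was 2 without vehicle mouse 1 and 1 without vehicle mouse 7 or INT-767 mouse 3. Of all tested genes, 1370, 679 and 619 were called lower in these fits, against 649 with all mice.

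Retinoid handling was viewed beside *Lrat* in a list of 12 genes tested and reported, of which edgeR called 0 lower (0 at an unadjusted p under 0.05) and 4 higher, with a median of 0.36. Of all tested genes, 4.68% were called lower, 15.6% were lower at an unadjusted p under 0.05 and 5.04% were called higher, and their median was -0.01. *Rdh10*, which oxidises retinol, stood at 29.2 ± 3.66 CPM with vehicle and 52.8 ± 12.4 CPM with INT-767 (SD, n = 7 and 4) and rose by 0.85 (edgeR adjusted p = 0.00881). *Rbp4*, the serum carrier of retinol made by hepatocytes, rose by 0.69 (edgeR adjusted p = 0.0201) and the retinol transporter gene *Stra6l* by 0.60 (edgeR adjusted p = 0.0327). *Cyp26a1*, which breaks down retinoic acid, had overlapping ranges of 1.05 to 5.72 and 5.62 to 21 CPM and rose by 1.67 (edgeR adjusted p = 0.0418). *Aldh1a1* (-0.01, edgeR adjusted p = 0.978) and *Ces1d* (0.39, edgeR adjusted p = 0.246) did not pass. Most of these genes are expressed in hepatocytes, so that the list does not describe stellate cells alone. Leaving out vehicle mouse 4, 5 or 6 gave 2 higher genes, and leaving out INT-767 mouse 2 gave 1. Of all tested genes, 375, 336, 306 and 164 were called higher in these fits, against 700 with all mice.

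Regulators of contractile genes and their targets, from the SRF, YAP and TGF-beta pathways, gave 5 lower and 0 higher genes of 24 tested, with a median of -0.51, beside 4.68% of all genes called lower and a median of -0.01. *Ankrd1*, a YAP target, had ranges of 3.3 to 8.01 CPM with vehicle and 0.691 to 1.83 CPM with INT-767 and fell by 2.10 on the log2 scale (edgeR adjusted p = 0.0045). *Ctgf*, a target of YAP and TGF-beta, stood at 47.2 ± 5.48 and 23.8 ± 7.87 CPM (SD, n = 7 and 4) and fell by 0.99 (edgeR adjusted p = 0.0129). *Tgfb2*, a TGF-beta ligand, fell by 1.17 (edgeR adjusted p = 0.0223) and the receptor *Tgfbr2* by 0.79 (edgeR adjusted p = 0.0302). The receptor *Tgfbr1* (0.40, edgeR adjusted p = 0.34) and *Wwtr1*, which encodes TAZ (0.40, edgeR adjusted p = 0.272), did not pass. The count was 3 without vehicle mouse 3, 4, 5 or 6 or INT-767 mouse 2 or 4. In those fits between 110 and 443 of all tested genes were called lower. The count was 9 without vehicle mouse 1, where 1370 of all tested genes were called lower, against 649 with all mice.

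**Figure D4:**
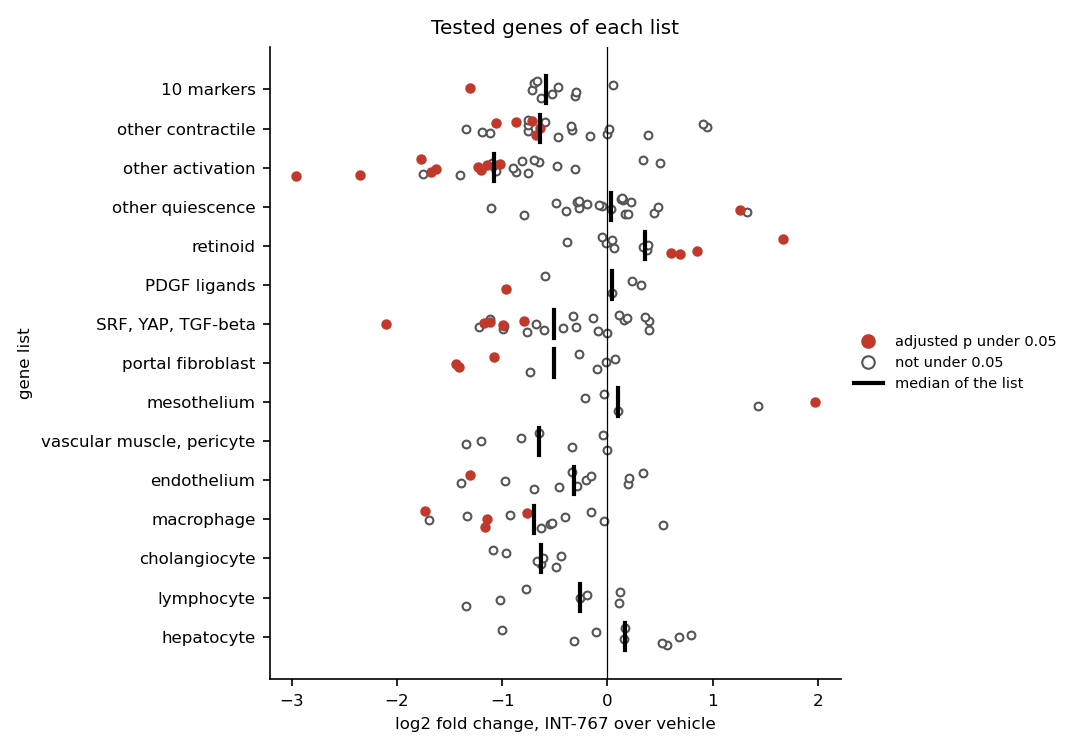
Log2 fold change of INT-767 over vehicle (horizontal axis) for every tested gene of each list (rows), filled red where the edgeR adjusted p is under 0.05, with a black bar at the median of the list. The other activation genes have a median of -1.08 and the other quiescence genes one of 0.03.

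Whole liver holds other cells that share these markers, and their genes were counted in the same way, beside 4.68% of all tested genes called lower, 5.04% called higher, 15.6% lower at an unadjusted p under 0.05 and a median of -0.01. Of 8 tested portal fibroblast genes, 3 were lower and 0 higher (median -0.50), namely *Fbln2*, *Eln* and *Mfap4*, all of which encode proteins of elastic fibres or microfibrils. The count was 0 without INT-767 mouse 2 and 1 without vehicle mouse 5. Of all tested genes, 110 and 284 were called lower in these fits, against 649 with all mice. The summed level of the 11 listed genes was 74.6 ± 14.2 CPM with vehicle and 58.1 ± 12.2 CPM with INT-767 (SD, n = 7 and 4), and *Dpt* was the most abundant. Of 7 tested genes of vascular smooth muscle and pericytes, none was called by edgeR, 3 were lower at an unadjusted p under 0.05 and the median was -0.65. Their summed level was 91 ± 34.2 CPM with vehicle and 57 ± 27.1 CPM with INT-767, mostly *Abcc9*, and the defining genes *Cnn1* and *Actg2* were close to 0. *Myh11*, the smooth muscle myosin heavy chain, had a fold change of 0.00 (SE 0.63) and ranged from 0.642 to 6.03 CPM among vehicle mice. Of 5 tested mesothelial genes, 0 were lower and 1 higher, *Lrrn4*, which stood at 1.39 ± 0.289 and 5.48 ± 2.64 CPM (edgeR adjusted p = 0.00329). The mesothelial count was 2 without vehicle mouse 5. In that fit 336 of all tested genes were called higher, against 700 with all mice. The part of these cells in the marker levels was not tested.

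Markers of lineages outside the mesenchyme were counted as well, to be read against the same shares of all tested genes (4.68% called lower and 15.6% lower at an unadjusted p under 0.05). Of 14 macrophage genes, 4 were lower and 0 higher (median -0.70), with *Itgam* (-1.73, edgeR adjusted p = 0.00498), *Csf1r*, *Cd68* and *Cd9*, and their summed level was 988 ± 152 CPM with vehicle and 728 ± 342 CPM with INT-767 (SD, n = 7 and 4), with *Lyz2* the most abundant. INT-767 mice 1, 2 and 3 had sums of 586, 562 and 523 CPM, below every vehicle mouse. INT-767 mouse 4 stood apart at 1240 CPM, above every vehicle mouse. Without INT-767 mouse 4 the count of lower genes was 7, when 443 of all tested genes were called lower, against 649 with all mice. Of 12 endothelial genes 1 was lower, *Vwf*, and the median was -0.31. Without a mouse the endothelial count was 3 (vehicle 1), 2 (INT-767 1) or 0 (vehicle 3, 4, 5 or 6 or INT-767 2, 3 or 4), and it was 1 otherwise. Of all tested genes, 1370, 732 and between 110 and 619 were called lower in the fits with 3, 2 and 0. The summed level of the endothelial genes was 372 ± 105 and 259 ± 52.2 CPM. By edgeR 0 of 7 cholangiocyte genes were called, 5 were lower at an unadjusted p under 0.05, beside 15.6% of all tested genes, and the median was -0.63. Likewise 0 of 7 lymphocyte genes were called (1 at an unadjusted p under 0.05, median -0.26), and neither of the 2 tested neutrophil genes was (0 at an unadjusted p under 0.05). Hepatocyte genes had a median of 0.17, and of 9 tested edgeR called 0, and 4 were higher at an unadjusted p under 0.05, as were 17.4% of all tested genes. The summed hepatocyte level was 65099 ± 6397 CPM with vehicle and 88274 ± 21492 CPM with INT-767 (SD, n = 7 and 4), with *Alb* the most abundant. INT-767 mouse 4, at 57731 CPM, lay within the vehicle range and the other INT-767 mice lay above it. The skeletal muscle genes *Ckm* and *Myh4* had 0 counts in every mouse. The part of these lineages in the marker levels was not tested.

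Under the alternative fits the fold changes of 9 markers stayed below 0, and that of *Lrat* lay on either side of it.

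**Figure D5:**
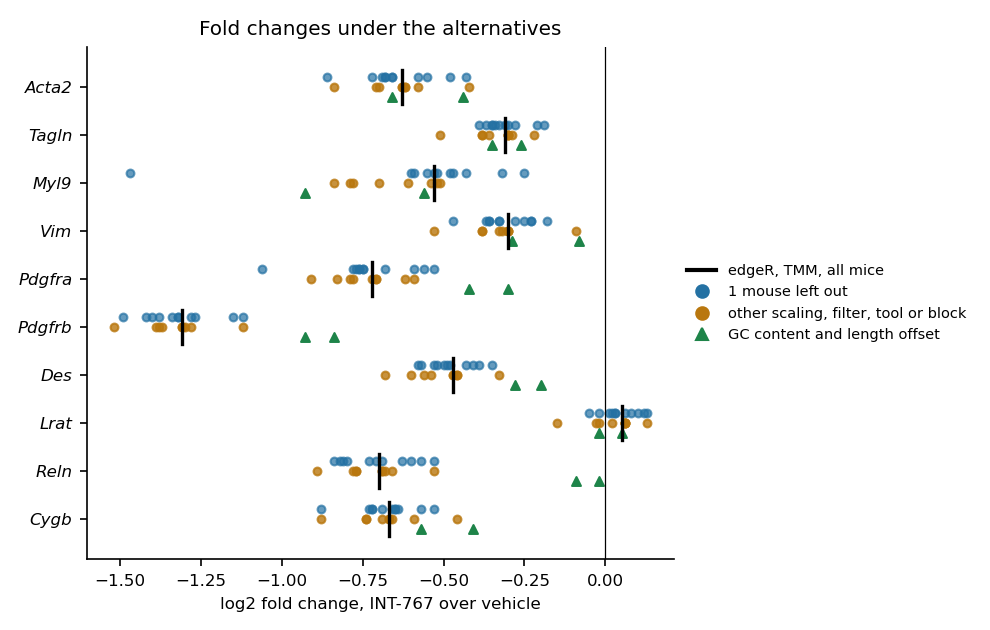
Log2 fold change of INT-767 over vehicle (horizontal axis) of each marker with all mice (black bar), with 1 mouse left out (blue), under another scaling, filter, tool or block (orange) and with an offset for GC content and length, alone or with the block (green triangles). *Reln* moves from -0.70 to -0.09 with the offset, and *Myl9* reaches -1.47 without INT-767 mouse 1.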

How the data were processed

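Liver mRNA of 11 mice was sequenced by the authors from stranded libraries for 75 cycles and aligned to GRCm38 with STAR (version 2.4.0 in the submitters' processing notes). The supplementary methods of the study give a different version of STAR. The authors deposited whole-number read counts per gene, with no normalization. How reads were assigned to genes, and whether by strand, is not given in the sources used here. Groups are those of the labels. The 10 markers and all lists were chosen with earlier results of these data known. A gene of the quiescence and retinoid lists is not reported here, and the values of these lists leave it out. In R 4.3.3, edgeR 4.0.16 scaled the counts by TMM, filterByExpr (minimum count 10, minimum total 15) kept 13880 genes, and glmQLFit (robust) with glmQLFTest compared the groups, treatment being the only term, with Benjamini-Hochberg adjustment over these genes. Standard errors derive from the quasi-likelihood F statistic and 95% intervals from its degrees of freedom. Exact two-sided Mann-Whitney tests on CPM enumerated 330 assignments. RPKM used merged GENCODE M21 exons. No 2 libraries were copies (median chi-square per gene of the closest pair 1.1, against 0.455 for random draws). On simulated data of this design in which 200 genes differed by a log2 value of 2, 89% of them were recovered by edgeR, with 13 others called. The largest marker change was -1.31, and recovery of changes of the markers' size was not simulated. Genes named were all markers and, per list, up to 4 called genes by p and up to 2 not called by level, with *Nr0b2*, *Abcb11*, actin paralogs, and the 5 genes most like *Acta2* and *Lrat*. *Cnn1*, *Myh11*, *Pcsk7*, *Ckm* and *Myh4* were added after their values were seen. Alternatives were other scalings, filters, limma-voom 3.58.1, DESeq2 1.42.0, an offset for GC content and transcript length (lowess span 0.3), a block for mouse number and leaving out each mouse. Floors of 3 counts reflect counting error alone, because the reads carry no molecular identifiers.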

Additional observations from a re-analysis of the deposited data

How the results depend on the processing

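The number of markers called lower was 1 with all mice and stayed 1 under all other scalings (RLE, upper quartile, library size only), both other filters on low counts, limma-voom with and without sample weights and the GC content and length offset. It was 2 by DESeq2 (*Pdgfrb* and *Cygb*), 0 at an adjusted p under 0.01 and between 0 and 3 when 1 mouse was left out. It was also 0 with the replicate block and 0 with the offset and block together, fits in which no tested gene was called. It was 0 without vehicle mouse 3, 4, 5 or 6 or INT-767 mouse 2 or 4, 2 without vehicle mouse 1 (*Pdgfrb* and *Cygb*) or INT-767 mouse 1 (*Myl9* and *Pdgfrb*), and it reached 3 (*Pdgfra*, *Pdgfrb* and *Cygb*) when INT-767 mouse 3 was left out. No marker was called higher in any of these fits. Of all tested genes, 649 were called lower and 700 higher with all mice by edgeR, against 1368 and 1443 by DESeq2. Library size only gave 1026 lower and 331 higher, and limma-voom with sample weights gave 1182 and 1626. When 1 mouse was left out, between 110 and 1370 of all tested genes were called lower and between 164 and 1906 higher. The difference between activation and quiescence medians, 0.09 with all mice, was -0.02 by limma-voom with and without sample weights, -0.06 with the block, -0.40 with the offset, -0.36 with both, and between -0.17 and 0.29 when a mouse was left out, the lowest without INT-767 mouse 1, the highest without mouse 3 of that group.

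*Lrat* turned from 0.05 to -0.15 with library size only, -0.03 with upper-quartile factors, -0.02 with a minimum of 10 counts in each mouse and -0.02 with the offset. When a mouse was left out it lay between -0.05 and 0.13, below 0 without vehicle mouse 3 (-0.02) or INT-767 mouse 1 (-0.05). Library size only moved the median of all genes to -0.22, and *Lrat* lay above that median. *Myl9* was not tested under the minimum in each mouse. Mouse numbers do not pair the groups (correlations of same-numbered mice -0.69, 0.215, 0.148 and -0.482). Vehicle mice 5, 6 and 7 have no treated mouse of their number and add nothing to the difference between groups under the block. With the block no gene of the 13880 was called by edgeR, *Pdgfrb* being at -1.12 (adjusted p = 0.356) and *Vim* at -0.09 (adjusted p = 0.876). The block thus rests on fewer vehicle mice, and its counts cannot decide whether a call holds.

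Counts over the further lists, recomputed as alternatives chosen after seeing the data, were 0 with the block for all 10 lists. In that fit no tested gene was called. When a mouse was left out, contractile genes called lower were between 0 and 7, activation genes between 0 and 12, quiescence genes between 0 and 2, regulators between 3 and 9, portal fibroblast genes between 0 and 3, macrophage genes between 3 and 7, PDGF ligand genes between 0 and 1 and endothelial genes between 0 and 3, while retinoid genes called higher were between 1 and 4 and mesothelial genes between 1 and 2. Quiescence genes called lower were 1 with the offset and 2 by DESeq2, macrophage genes 7 and endothelial genes 2 by DESeq2, and mesothelial genes called higher 2 with the offset and 2 by DESeq2. The counts over all tested genes also moved in these fits, as given above. The cause of these changes was not tested. *Acta2* had between 20 and 120 counts per mouse and *Myl9* between 5 and 58, which limits the precision of their levels.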
